A study of Mus musculus with 36 samples.

Results

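The genes of protein folding in the endoplasmic reticulum (ER) and of the unfolded protein response were followed in sorted mouse cardiac macrophages. The list held 50 gene symbols, and the members were the rows of the count table that carry 1 of these symbols. There were 48 such rows among 12795 genes. Derl3 was not analysed here, and Ufd1l is not a symbol of the table, which has a row named Ufd1 that was not counted as a member. All 48 members were tested, since the expression filter removed no gene.

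The study asked which mRNAs respond to overexpression of TFEB, which induces genes of lysosomes and autophagy, in macrophages of hearts injured by ischemia. Mice were fed tamoxifen for 7 days, underwent 90 min of cardiac ischemia and were used 7 days later, when cardiac macrophages were sorted into a CCR2-negative (CCR2neg) and a CCR2-positive (CCR2pos) fraction. CCR2 is the chemokine receptor by which monocytes leave the bone marrow, and Ccr2-expressing cardiac macrophages are largely replaced from monocytes. The transgenic genotype, TFEB-TG, carried TFEB-LoxP-STOP, a TFEB expression cassette behind a stop sequence that Cre removes, and TFEB-wt had no cassette. Both genotypes are described with Cx3cr1-er-Cre, a tamoxifen-inducible Cre driven by the Cx3cr1 gene of macrophages and monocytes, and with the reporter Td-Tomato-LoxSTOP. Each genotype and fraction had a group named Cre-neg and a group with Cre. The group with Cre is named mac-TFEB where the cassette is present and CX3CR1-Cre where it is absent. The Cre-neg samples are described as lacking Cre although Cx3cr1-er-Cre is listed for both genotypes, and neither the way they were obtained nor the age of the mice is stated. There were 4 libraries in every TFEB-TG group and 5 in every TFEB-wt group, numbered within the genotype. Whether libraries of 1 group are from different mice is not in the labels, so the p-values measure the spread between these libraries, which may be technical.

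Secreted and membrane proteins enter the ER through the translocon, are folded there by chaperones and disulfide isomerases, and leave it for degradation when folding fails. Unfolded protein is sensed by IRE1 (Ern1), which splices the Xbp1 mRNA, by PERK (Eif2ak3), which slows translation and favours translation of Atf4, and by ATF6, which is cut in the Golgi to release a transcription factor. The factors XBP1 and ATF6 induce chaperones and degradation genes, whereas ATF4 and its target Ddit3 (CHOP) induce genes of amino acid supply and of recovery from or death by stress. Macrophages rely on these branches when they secrete cytokines or take up dying cells. Counts per gene report neither Xbp1 splicing nor the activity of the sensor proteins.

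The promoters of several members carry binding motifs of these factors, and some of them are shown here. RefSeq entries (GRCm38.p6) of 41 of the 48 members were searched from 250 bases before to 50 bases after the start site, on both strands. Capitals mark the motif.

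Hspa5 ERSE: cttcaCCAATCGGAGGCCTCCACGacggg
Hsp90b1 ERSE, distal: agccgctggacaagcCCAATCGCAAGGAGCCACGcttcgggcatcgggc
Hsp90b1 ERSE, proximal: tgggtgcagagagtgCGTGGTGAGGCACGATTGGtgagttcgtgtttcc
Calr ERSE: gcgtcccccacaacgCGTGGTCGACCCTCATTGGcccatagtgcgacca
Herpud1 ERSE-II: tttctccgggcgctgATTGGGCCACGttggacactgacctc
Herpud1 CARE: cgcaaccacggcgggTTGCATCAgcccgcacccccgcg
Nupr1 CARE: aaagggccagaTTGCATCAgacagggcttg
Asns CARE: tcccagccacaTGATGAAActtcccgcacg
Nupr1 E-box: gcgagagctttcCACGTGgaaaaacacagc
Dnajb9 E-box: acaacagttttcCACGTGcgcgtagggcgc
Atf6b E-box: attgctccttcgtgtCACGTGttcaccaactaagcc
Calr CLEAR: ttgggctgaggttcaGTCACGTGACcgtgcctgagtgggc

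The ER stress response element (ERSE, CCAAT and CCACG with 9 bases between them), the motif of ATF6 and XBP1 with NF-Y, was found in the promoters of 8 of the 41 members, Hspa5, Hsp90b1, Calr, Canx, Pdia6, Dnajc3, Creld2 and Syvn1, and in 0.119% of 32851 promoters. Its shorter form ERSE-II (ATTGG and CCACG with 1 base between them) lay in 0.0365% of promoters and in those of Herpud1 and Dnajb11. The C/EBP-ATF response element (CARE, TGATGNAA), bound by ATF4, was found in 3.97% of promoters and in those of Asns, Chac1, Herpud1, Nupr1 and Trib3. The E-box CACGTG, which many helix-loop-helix factors bind, was found in 7.15% of promoters and in those of 6 members. The CLEAR motif of TFEB (that E-box with GT before and AC after it, so that every match overlaps an E-box) was found in 0.326% of promoters and in that of Calr alone among the 41. The XBP1 motif TGACGTGG was found in 0.676% of promoters and in that of Vcp. Among the members called in the results below, Serp1, Sdf2l1, Atf4, Ppp1r15a, Pdia3 and Bet1 had no match to any of these motifs. Derl1 and Atf6, also called, were not among the 41. A match describes the letters of the window, and binding was not measured here.

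The printed stretches lie upstream of the RefSeq start site. That of Hspa5 is chr2:34772020-34772048 (plus strand), with the motif 65 to 47 bases upstream. Those of Hsp90b1 are chr10:86705623-86705671 (minus strand) and chr10:86705518-86705566 (minus strand), with motifs 212 to 194 and 107 to 89 bases upstream. For Calr they are chr8:84847060-84847108 (minus strand) and chr8:84847133-84847172 (minus strand), and for Herpud1 chr8:94386362-94386402 (plus strand) and chr8:94386302-94386339 (plus strand). For Nupr1 they are chr7:126625562-126625591 (minus strand) and chr7:126625678-126625707 (minus strand), and for Asns chr6:7693214-7693243 (minus strand). The E-box stretches of Dnajb9 and Atf6b are chr12:44210158-44210187 (minus strand) and chr17:34647083-34647118 (plus strand).

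The 36 libraries held 13797484 to 32645783 counts each. Tfeb was at 67.4 to 335 CPM (counts scaled to library size) in the CCR2neg mac-TFEB libraries and 60.4 to 279.8 in the CCR2pos ones, against 6.66 to 8.86 and 4.42 to 11.5 with CX3CR1-Cre. In the TFEB-TG Cre-neg libraries Tfeb was at 12.4 to 36.5 CPM (CCR2neg) and 19.1 to 51.0 (CCR2pos), and in those of TFEB-wt Cre-neg at 4.57 to 10.9 and 5.10 to 7.17, so the cassette group without Cre did not overlap the group without cassette. Ccr2 followed the sort, with 27.3 to 114 CPM in CCR2neg and 302 to 1247 in CCR2pos libraries. The 9 macrophage markers summed to 27177 to 40303 CPM, and no marker of the 11 lists used was at 0 in every library of a group. Library 1 of CCR2neg TFEB-TG Cre-neg stood farthest from its group over all genes and had a summed cardiomyocyte marker level of 469 CPM, against a median of 43.2 in its group.

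Per kilobase of exon, the most abundant members over the 36 libraries were Hspa5 (BiP, the main ER chaperone) at 734 CPM per kb, Pdia3 (a disulfide isomerase of glycoproteins) at 347 and Ppp1r15a (GADD34, which ends the translation block set by PERK) at 322. Among the transcription factors the level per length was 128 CPM per kb for Atf4, 26.4 for Ddit3, 19.7 for Xbp1, 9.86 for Atf6 and 9.57 for Atf6b. The sensors Eif2ak3 and Ern1 were at 1.80 and 1.66 CPM per kb. Lowest were Wfs1 at 0.876, Trib3 at 0.780 and Chac1 at 0.349 CPM per kb. Exons of 17 members overlap those of another annotated gene, among them Hsp90b1, Sdf2, Ssr2, Ddit3 and Ppp1r15b by over 10% of their length, and since the libraries carry no strand information reads there cannot be assigned to 1 gene.

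Group means ± SD are given below in the order TFEB-wt Cre-neg, TFEB-wt CX3CR1-Cre, TFEB-TG Cre-neg and TFEB-TG mac-TFEB, with n = 5 in the TFEB-wt and n = 4 in the TFEB-TG groups. Hspa5 was at 2991 ± 491, 3113 ± 269.9, 2337 ± 371 and 2582 ± 399.5 CPM in CCR2neg and 3399 ± 257, 3539 ± 243, 3389.9 ± 534 and 3313 ± 384 CPM in CCR2pos. Its mean was highest in TFEB-wt CCR2pos CX3CR1-Cre and lowest in TFEB-TG CCR2neg Cre-neg. Hsp90b1 was at 484 ± 77.4, 458 ± 80.1, 490.5 ± 39.8 and 503 ± 61.0 CPM in CCR2neg and 509.7 ± 55.2, 495 ± 55.6, 489 ± 38.5 and 493 ± 66.5 CPM in CCR2pos. Its mean was highest in TFEB-wt CCR2pos Cre-neg and lowest in TFEB-wt CCR2neg CX3CR1-Cre, and its group means lay closer together than those of Hspa5. Sdf2l1 was at 59.0 ± 19.4, 62.9 ± 7.85, 28.1 ± 13.5 and 37.6 ± 5.91 CPM in CCR2neg and 62.9 ± 4.34, 57.1 ± 8.21, 49.1 ± 9.44 and 48.8 ± 12.0 CPM in CCR2pos, with the mean highest in TFEB-wt CCR2neg CX3CR1-Cre and lowest in TFEB-TG CCR2neg Cre-neg. Pdia3 was at 1149 ± 231, 1161 ± 205, 724 ± 231 and 957 ± 76.6 CPM in CCR2neg and 1260.1 ± 113, 1204 ± 127, 1116 ± 158 and 1033 ± 126 CPM in CCR2pos, highest in TFEB-wt CCR2pos Cre-neg and lowest in TFEB-TG CCR2neg Cre-neg. Dnajb9 was at 144 ± 18.0, 161 ± 19.0, 120.5 ± 12.3 and 111 ± 15.5 CPM in CCR2neg and 165 ± 16.4, 178 ± 17.7, 163 ± 20.7 and 168 ± 20.5 CPM in CCR2pos, highest in TFEB-wt CCR2pos CX3CR1-Cre and lowest in TFEB-TG CCR2neg mac-TFEB.

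Among the sensors and factors, Atf4 was at 294 ± 16.4, 310.1 ± 15.5, 259 ± 20.6 and 277 ± 4.99 CPM in CCR2neg and 319.7 ± 25.013, 324 ± 12.3, 314 ± 22.3 and 314 ± 11.9 CPM in CCR2pos. The order of its means ran from TFEB-wt CCR2pos CX3CR1-Cre (highest) to TFEB-TG CCR2neg Cre-neg (lowest). Xbp1 was at 70.5 ± 35.9, 80.4 ± 14.9, 41.0 ± 7.85 and 58.0 ± 28.1 CPM in CCR2neg and 75.8 ± 22.0, 56.5 ± 24.7, 63.4 ± 36.5 and 59.5 ± 31.4 CPM in CCR2pos, with its mean highest in TFEB-wt CCR2neg CX3CR1-Cre and lowest in TFEB-TG CCR2neg Cre-neg and SDs between 7.85 and 36.5 CPM. Ddit3 was at 39.0 ± 2.94, 46.1 ± 2.14, 47.6 ± 6.99 and 47.6 ± 7.34 CPM in CCR2neg and 43.8 ± 4.23, 45.1 ± 3.34, 46.1 ± 3.17 and 47.9 ± 3.46 CPM in CCR2pos, highest in TFEB-TG CCR2pos mac-TFEB and lowest in TFEB-wt CCR2neg Cre-neg. Atf6 was at 80.7 ± 10.9, 81.7 ± 9.20, 85.3 ± 17.5 and 93.3 ± 7.27 CPM in CCR2neg and 96.4 ± 10.5, 98.3 ± 10.4, 98.5 ± 8.06 and 95.9 ± 5.34 CPM in CCR2pos, and Atf6b, with a similar domain structure, at 28.6 ± 9.71, 26.0 ± 2.47, 15.9 ± 9.05 and 19.6 ± 6.88 CPM in CCR2neg and 30.7 ± 5.46, 30.7 ± 6.74, 29.0 ± 5.85 and 27.9 ± 8.90 CPM in CCR2pos. Both had their lowest mean in a CCR2neg group. Ern1 was at 14.7 ± 1.79, 10.3 ± 0.800, 14.5 ± 2.31 and 11.2 ± 4.40 CPM in CCR2neg and 13.9 ± 2.52, 12.9 ± 0.964, 17.4 ± 4.10 and 14.2 ± 1.84 CPM in CCR2pos, highest in TFEB-TG CCR2pos Cre-neg and lowest in TFEB-wt CCR2neg CX3CR1-Cre. Eif2ak3 was at 9.82 ± 2.06, 10.9 ± 4.07, 11.7 ± 0.510 and 10.5 ± 0.965 CPM in CCR2neg and 9.48 ± 2.15, 9.83 ± 2.07, 11.3 ± 1.68 and 14.0 ± 3.34 CPM in CCR2pos, highest in TFEB-TG CCR2pos mac-TFEB and lowest in TFEB-wt CCR2pos Cre-neg.

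Of the stress response outputs, Ppp1r15a was at 915 ± 127, 1023 ± 139, 673 ± 136 and 727 ± 191 CPM in CCR2neg and 1028 ± 91.4, 1107 ± 167, 1007 ± 200.3 and 1018 ± 243 CPM in CCR2pos, highest in TFEB-wt CCR2pos CX3CR1-Cre and lowest in TFEB-TG CCR2neg Cre-neg. Asns was at 7.97 ± 3.62, 4.89 ± 1.36, 6.88 ± 0.645 and 4.74 ± 2.42 CPM in CCR2neg and 5.22 ± 2.05, 4.21 ± 2.15, 5.10 ± 0.818 and 2.72 ± 0.742 CPM in CCR2pos. Its mean was highest in TFEB-wt CCR2neg Cre-neg and lowest in TFEB-TG CCR2pos mac-TFEB. Derl1 of the degradation genes was at 77.7 ± 9.79, 76.1 ± 7.52, 58.8 ± 4.74 and 66.0 ± 2.37 CPM in CCR2neg and 89.4 ± 2.56, 80.1 ± 4.51, 85.0 ± 1.13 and 78.2 ± 5.69 CPM in CCR2pos, and Bet1 at 53.4 ± 6.05, 41.0 ± 5.49, 54.8 ± 3.84 and 47.2 ± 2.46 CPM in CCR2neg and 55.2 ± 4.78, 49.3 ± 4.0019, 48.4 ± 6.23 and 50.4 ± 4.79 CPM in CCR2pos. Their means were highest in TFEB-wt CCR2pos Cre-neg and lowest in TFEB-TG CCR2neg Cre-neg for Derl1 and highest in TFEB-wt CCR2pos Cre-neg and lowest in TFEB-wt CCR2neg CX3CR1-Cre for Bet1. Herpud1, Serp1 and Nupr1 are given library by library with the comparisons.

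**Figure D1:**
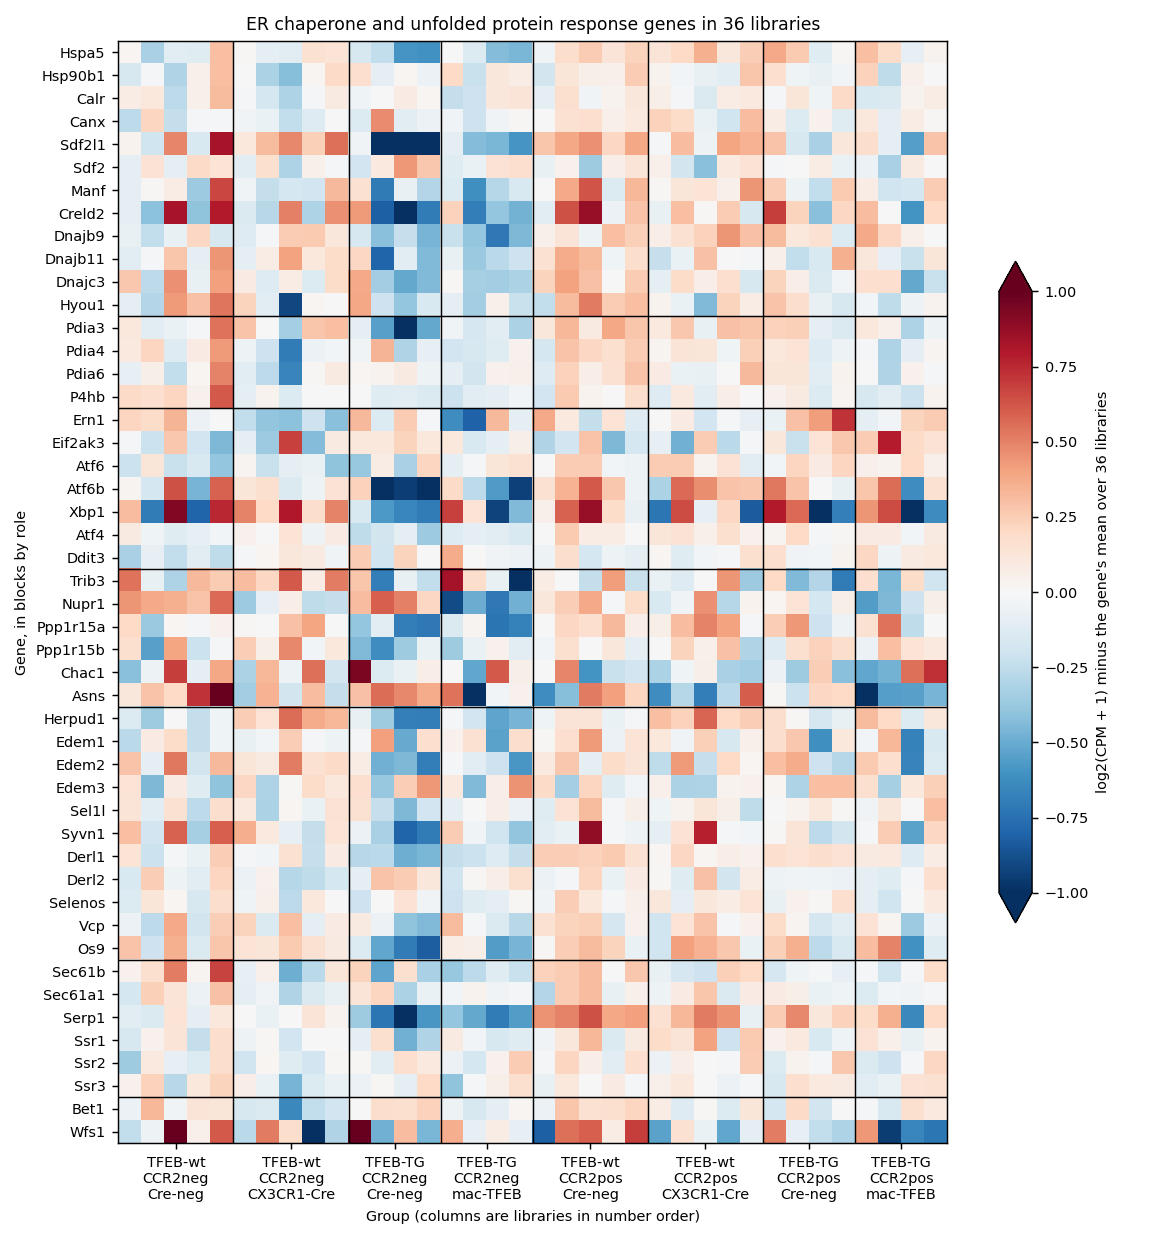
Heat map of the 48 genes (rows, in blocks by role) in the 36 libraries (columns, by group), as log2(CPM + 1) minus the gene's mean over all libraries, with colours saturating at 1 and -1. Serp1 is lower in all 8 CCR2neg libraries of TFEB-TG than in any CCR2neg library of TFEB-wt, and the group means of Nupr1 are highest in the CCR2neg Cre-neg groups.

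The effect of TFEB was read from mac-TFEB against CX3CR1-Cre. In CCR2neg macrophages, 3 of the 48 members fell with mac-TFEB and 0 rose, at an adjusted p under 0.05, while 0.453% of all 12795 genes fell and 0.922% rose (1.38% called in all). These were Herpud1, Dnajb9 and Serp1, which act in degradation, folding and translocation. The median log2 fold change was -0.08 over the members and 0.01 over all genes.

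Herpud1 encodes a stress-induced ER membrane protein that recruits the degradation machinery. It stood at 292, 259, 204 and 214 CPM in the CCR2neg mac-TFEB libraries and at 351, 325, 435, 382 and 372 CPM with CX3CR1-Cre. Every mac-TFEB library lay below every CX3CR1-Cre library. The log2 fold change was -0.62 ± 0.12 (SE), a 1.54-fold lower level (edgeR, adjusted p = 0.00439). The Cre-neg libraries of the same fraction held 268, 231, 295, 251 and 287 CPM in TFEB-wt and 281, 230.5, 184 and 183 CPM in TFEB-TG. Of the 4 CCR2neg groups, CX3CR1-Cre was the high one, and the mac-TFEB range overlapped both Cre-neg ranges.

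Dnajb9 (ERdj4, a co-chaperone of BiP) was at 129, 114, 91.1 and 109 CPM with mac-TFEB and at 137, 148, 179, 180.2 and 162 CPM with CX3CR1-Cre, again without overlap. It fell by 0.54 ± 0.11 on the log2 scale (edgeR, adjusted p = 0.00838). Serp1 (RAMP4, a small translocon-associated protein that stabilises new membrane proteins) was at 151, 138, 121 and 133 CPM with mac-TFEB and at 198, 188, 196, 215 and 202 CPM with CX3CR1-Cre. Its groups did not overlap either, and its log2 fold change was -0.56 ± 0.14 (edgeR, adjusted p = 0.0392). Without mac-TFEB library 3 no member was called, and the share of all genes called fell from 1.38% to 0.461%. The adjusted p in edgeR was then 0.0514 for Herpud1, 0.0950 for Dnajb9 and 0.206 for Serp1. The Serp1 call was also lost without mac-TFEB library 2 or 4 and without CX3CR1-Cre library 1, 3, 4 or 5, with adjusted p-values of 0.0560 to 0.138. A fit to the 9 libraries of this comparison alone called 2 members, Serp1 and Sdf2l1, and 0.533% of the genes it tested, and in it Herpud1 and Dnajb9 did not pass (edgeR, adjusted p = 0.0523 and 0.0808).

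Altogether 8 members had CCR2neg mac-TFEB libraries that did not overlap those of CX3CR1-Cre, all 8 lower, where 3.2% of all genes were lower in this way (2.81% were higher, 6.01% in either direction). Beside the 3 called genes these were Nupr1, Sdf2l1 and Atf4, and Edem2 and Os9, which are named after their values were seen. Their log2 fold changes were -0.47 ± 0.13 for Nupr1 (a small stress-induced chromatin protein downstream of ATF4), -0.74 ± 0.22 for Sdf2l1 (a chaperone partner of BiP), -0.16 ± 0.07 for Atf4, -0.44 ± 0.19 for Edem2 (a mannosidase of glycoprotein degradation) and -0.35 ± 0.18 for Os9 (a lectin of the same pathway). The adjusted p in edgeR was 0.0659, 0.0850, 0.256, 0.256 and 0.378 in that order. For Nupr1 a block on the library number, which pairs nothing between the genotypes, gave an adjusted p of 0.0434 in edgeR.

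By role, 1 of 12 chaperones and co-chaperones, 1 of 11 degradation genes and 1 of 6 translocon genes fell in CCR2neg, and 0 of 4 disulfide isomerases, 0 of 7 sensors and transcription factors and 0 of 6 outputs of the integrated stress response were called. The log2 fold changes of the chaperones Hspa5 and Hsp90b1 were -0.27 ± 0.12 and 0.14 ± 0.12, those of the sensors Ern1, Eif2ak3 and Atf6 0.12 ± 0.18, -0.06 ± 0.20 and 0.19 ± 0.11, and those of Xbp1 and Ddit3 -0.47 ± 0.40 and 0.05 ± 0.10. Xbp1 was the least precise of these, with 94.6, 64.3, 30.3 and 42.8 CPM in the mac-TFEB libraries.

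Other lists moved in the same comparison. The 12 proliferation markers summed to 298 to 658 CPM with mac-TFEB and 199.8 to 318 CPM with CX3CR1-Cre in CCR2neg, with 12 of 12 above 0 on the log2 scale and 2 called higher. Of the 11 dissociation and stress genes, 10 were below 0 and 0 were called, and they summed to 5816 to 7802 and 6604 to 9256 CPM. In edgeR 6 of them had an unadjusted p under 0.05, beside 1873 of all 12795 genes. Also called lower were Batf3 of dendritic cells, Tpsb2 of mast cells and C1qa, 1 of the 9 macrophage markers. Batf3 went against its list, since 6 of the 8 dendritic cell genes were above 0 (median log2 fold change 0.41). The 3 measured mast cell genes were all below 0, as were 5 of the 9 macrophage markers. C1qa fell by 0.76 on the log2 scale. Their part in the result was not tested. In such bulk samples fewer cells of a type and less RNA per cell cannot be told apart.

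In CCR2pos macrophages 0 of the 48 members were called between mac-TFEB and CX3CR1-Cre by edgeR, and DESeq2's Wald test called 0. In edgeR 0.0391% of all genes were called (0.0234% lower), and 2 members and 591 of all 12795 genes had an unadjusted p under 0.05. The smallest unadjusted p-values were those of Eif2ak3, with a log2 fold change of 0.51 ± 0.20 (edgeR, adjusted p = 1.000), and Nupr1, with -0.29 ± 0.13 (adjusted p = 1.000). Eif2ak3 was at 12.8, 18.9, 12.3 and 11.8 CPM with mac-TFEB and 9.92, 7.32, 12.8, 8.62 and 10.5 CPM with CX3CR1-Cre. The ranges overlapped, and library 2 of mac-TFEB was the highest. Herpud1 was at 368, 340.2, 269 and 319 CPM with mac-TFEB and 365, 346, 443, 339.5 and 351 CPM with CX3CR1-Cre, which overlap, and its log2 fold change was -0.19 ± 0.12. The other always-named members lay between -0.23 (Sdf2l1) and 0.15 (Ern1). The difference between the fractions in the effect of TFEB was tested as an interaction, and 0 members and 0 of all genes (0%) passed in edgeR. Of all 12795 genes, 505 had an unadjusted p under 0.05 in this test. At an unadjusted p under 0.05 there were 2 members, Dnajb9 with a difference of 0.46 ± 0.16 and Herpud1 with 0.43 ± 0.17 (edgeR, adjusted p = 1.000 for both).

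**Figure D2:**
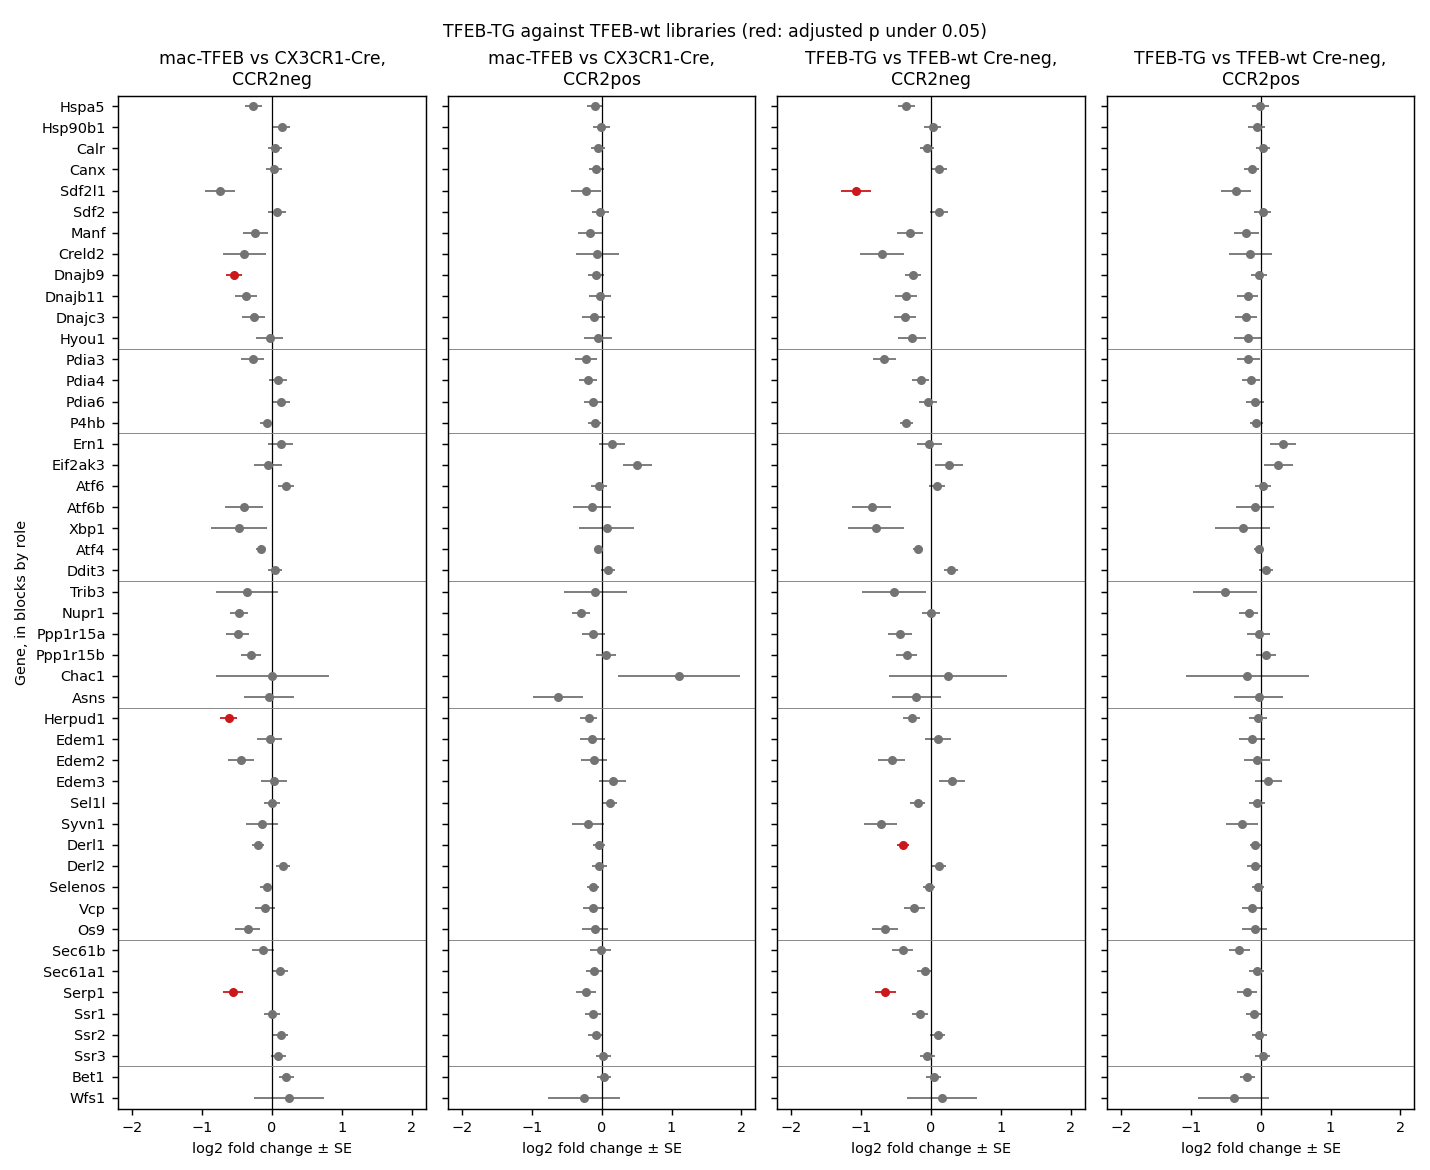
Log2 fold change (point) and SE (bar) of the 48 genes between TFEB-TG and TFEB-wt libraries, from left to right mac-TFEB against CX3CR1-Cre in CCR2neg and CCR2pos and Cre-neg against Cre-neg in CCR2neg and CCR2pos. The 3 red points of the first panel are Dnajb9, Herpud1 and Serp1, the 3 of the third are Sdf2l1, Derl1 and Serp1, and the CCR2pos panels have none.

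The study used the Cre-neg groups to find mRNAs that respond to the cassette alone, so the members were compared between TFEB-TG and TFEB-wt without Cre. In CCR2neg, 3 of 48 fell in TFEB-TG Cre-neg and 0 rose, beside 0.367% lower and 0.0391% higher of all genes (0.406% called in all). The median log2 fold change was -0.20 over the members and 0.02 over all genes, and 34 of 48 members were below 0.

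Sdf2l1 was at 48.2, 21.9, 19.7 and 22.5 CPM in TFEB-TG Cre-neg and at 50.4, 42.7, 69.5, 44.2 and 88.0 CPM in TFEB-wt Cre-neg. Library 1 of TFEB-TG overlapped the TFEB-wt range and the other 3 lay below it. The log2 fold change was -1.07 ± 0.22, 2.11-fold lower (edgeR, adjusted p = 0.0254). Derl1 (derlin-1, a channel component of ER-associated degradation) was at 62.8, 63.0, 54.2 and 55.3 CPM against 83.9, 65.6, 75.7, 72.8 and 90.7 CPM, with a log2 fold change of -0.40 ± 0.08 (edgeR, adjusted p = 0.0254). Serp1 was at 154, 119, 91.9 and 131 CPM against 182, 179, 216, 185 and 212 CPM, with -0.65 ± 0.14 (edgeR, adjusted p = 0.0345). The groups of Derl1 and Serp1 did not overlap, nor did those of P4hb, which was not called (log2 fold change -0.35). All 3 were lower, where 1.84% of all genes were lower in this way (2.77% in either direction).

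Serp1 thus passed both with and without Cre, whereas Herpud1 and Dnajb9 were not called in the Cre-neg comparison. The log2 fold changes of Herpud1 and Dnajb9 there were -0.28 ± 0.12 (edgeR, adjusted p = 0.313) and -0.25 ± 0.11 (adjusted p = 0.327). A call in only 1 of the comparisons does not show that they differ, and their difference, given below, called 0 genes. The Serp1 call in Cre-neg was lost in 5 of the 9 fits without 1 library. Pdia3, at 993, 729, 428 and 745 CPM in TFEB-TG Cre-neg and 1146, 985, 1016, 1051 and 1549 CPM in TFEB-wt Cre-neg, had a log2 fold change of -0.67 ± 0.16 (edgeR, adjusted p = 0.0578). Hspa5 had -0.36 ± 0.12, Hsp90b1 0.02 ± 0.12, Xbp1 -0.78 ± 0.40, Atf4 -0.19 ± 0.07 and Atf6 0.08 ± 0.12. Ddit3 had a positive value, 0.29 ± 0.10 (edgeR, adjusted p = 0.167).

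The count in this comparison depended on the libraries. It was 11 members without TFEB-TG library 1, 9 without its libraries 1 and 2 and 1 without library 2, where the share of all genes called moved from 0.406% to 3.44%, 2.76% and 0.281%. It was 0 without TFEB-TG library 3 or 4 or TFEB-wt library 3 or 5, with 0.0469%, 0.172%, 0.0547% and 0.0625% of all genes called. Without TFEB-wt library 2 it was 6 and without TFEB-wt library 4 it was 5, beside 1.38% and 0.75% of all genes. A fit to these 9 libraries alone called 0 members and 0.00796% of the genes it tested, with adjusted p-values of 0.473 to 0.527 for the 3 genes in edgeR. The 8 measured cardiomyocyte markers summed to 28.5 to 469 CPM in TFEB-TG Cre-neg and 30.2 to 83.1 CPM in TFEB-wt Cre-neg, the highest being library 1 of TFEB-TG, and the 12 proliferation markers to 198 to 482 and 151 to 223 CPM. Their part in the result was not tested.

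In CCR2pos the same comparison called 0 of 48 members in edgeR (and 0 by DESeq2) and 0.0313% of all genes. At an unadjusted p under 0.05 in edgeR there were 0 members and 393 of all 12795 genes. The smallest unadjusted p-values were those of Sec61b, a translocon subunit, with -0.31 ± 0.15 (edgeR, adjusted p = 1.000), and Bet1, a vesicle fusion protein of ER-to-Golgi transport, with -0.19 ± 0.10 (edgeR, adjusted p = 1.000). Serp1, Sdf2l1 and Derl1 had -0.20 ± 0.14, -0.36 ± 0.21 and -0.07 ± 0.08 in this fraction. The effect of TFEB beyond that of the cassette, taken as the difference of both comparisons, called 0 members and 0 of all genes in either fraction (0% in CCR2neg and 0% in CCR2pos, edgeR). Tfeb itself was higher in the TFEB-TG than in the TFEB-wt Cre-neg libraries, as given above. This difference therefore cannot fully separate TFEB from the cassette. Unadjusted p-values under 0.05 numbered 2 members in CCR2neg, Nupr1 with -0.47 ± 0.18 (edgeR, adjusted p = 0.999) and P4hb with 0.28 ± 0.13 (edgeR, adjusted p = 0.999), and 0 in CCR2pos, where the smallest belonged to Bet1 with 0.22 ± 0.15 and Sec61b with 0.29 ± 0.22. The CCR2neg number was 6 without TFEB-TG Cre-neg library 1 and 9 without its libraries 1 and 2, with 0 members and 0 of all genes called in both fits (edgeR). Among all 12795 genes the number was 496 in CCR2neg and 145 in CCR2pos. In CCR2neg it was 532 without library 1 and 802 without libraries 1 and 2. With the library number of each genotype as a block 32 genes (0.25%) and 0 members were called in CCR2neg, and 0 genes in CCR2pos.

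Nupr1, whose promoter holds the CARE and the E-box shown above, differed between the CCR2neg groups with and without Cre in both genotypes. In CCR2neg TFEB-TG it was at 101, 134, 115 and 135 CPM with mac-TFEB and 233, 286, 267 and 218 CPM in Cre-neg. The groups did not overlap, each mac-TFEB library was lower than the Cre-neg library of its number, and the log2 fold change was -1.05 ± 0.14, 2.07-fold lower (edgeR, adjusted p = 6.33e-05). It was the only member called there, beside 0.156% of all genes (0.0703% lower and 0.086% higher). Nupr1 (lower) and Derl1 (higher by 0.17, not called) did not overlap there, where 3.56% of all genes did not (1.59% lower and 1.97% higher). In CCR2neg TFEB-wt, without any TFEB cassette, Nupr1 was at 146, 178, 198, 158 and 159 CPM with CX3CR1-Cre and 256, 246, 241, 229.9 and 279 CPM in Cre-neg. It fell there by 0.58 ± 0.12 on the log2 scale, lower in 5 of 5 numbered pairs (edgeR, adjusted p = 0.00658). Both calls of Nupr1 held in every alternative fit that was run and without each library in turn. The difference between the genotypes is the value of -0.47 ± 0.18 given above, which did not pass after adjustment (edgeR, adjusted p = 0.999).

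In CCR2pos the values of Nupr1 overlapped. They were 128, 138, 163 and 196 CPM with mac-TFEB and 191, 207, 167 and 196 CPM in TFEB-TG Cre-neg, with a log2 fold change of -0.28 ± 0.14 (edgeR, adjusted p = 1.000). In TFEB-wt it was at 169, 184, 259, 154 and 193 CPM with CX3CR1-Cre and 204, 224, 246, 186 and 214 CPM in Cre-neg. The TFEB-TG comparison called 0 members and 0.0156% of all genes in edgeR, and DESeq2 called 0 members. In edgeR 2 members had an unadjusted p under 0.05, beside 266 of all 12795 genes. The other of the 2 was Asns (asparagine synthetase, an ATF4 target), at 1.62, 3.01, 3.03 and 3.24 CPM with mac-TFEB and 4.90, 4.03, 5.75 and 5.74 CPM in Cre-neg, with -0.90 ± 0.38 (edgeR, adjusted p = 1.000).

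In TFEB-wt CCR2neg, 1 member rose and 2 fell with CX3CR1-Cre, beside 0.969% and 1.63% of all genes (2.6% in either direction). Herpud1 rose, by 0.49 ± 0.12, with the values given above, and was higher in 5 of 5 numbered pairs without overlap (edgeR, adjusted p = 0.0144). Bet1 fell from 47.4, 62.6, 48.4, 54.3 and 54.0 CPM in Cre-neg to 44.1, 44.6, 31.4, 41.5 and 43.2 CPM with CX3CR1-Cre, also without overlap. Its log2 fold change was -0.38 ± 0.10 (edgeR, adjusted p = 0.0257). Without Cre-neg library 2 or CX3CR1-Cre library 3 only Nupr1 was called, beside 1.73% and 2.03% of all genes. The edgeR adjusted p was then 0.0589 and 0.0673 for Herpud1 and 0.119 and 0.0841 for Bet1. Bet1 was also lost without CX3CR1-Cre library 4 (0.0588) and Cre-neg library 5 (0.0612), and in a fit to the 10 libraries of this comparison alone (0.145). CX3CR1-Cre library 3 was the lowest of Bet1 and the highest of Herpud1. With the library number as a block 6 members passed, while the share of all genes called rose from 2.6% to 7.54% (965 genes). The further ones were P4hb at -0.29 ± 0.07, Ern1 at -0.52 ± 0.15 and Sec61b at -0.44 ± 0.14 (edgeR, adjusted p = 0.0127, 0.0260 and 0.0455).

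Herpud1 was also the leading member in TFEB-wt CCR2pos, at 365, 346, 443, 339.5 and 351 CPM with CX3CR1-Cre and 287, 323, 323, 282 and 293 CPM in Cre-neg, higher in 5 of 5 pairs without overlap. It was the only member without overlap there, where 1.34% of all genes had none (0.742% higher). The log2 fold change of 0.29 ± 0.12 had an adjusted p of 0.735 in edgeR, and 0.0311 with the library number as a block, where 1.05% of all genes were called. Without the block 0 members were called, and 0.00782% of all genes. Unadjusted p-values under 0.05 numbered 2 members in edgeR, Herpud1 and Derl1 (-0.16 ± 0.08), beside 722 of all 12795 genes, and DESeq2 called 0 members. In the TFEB-TG CCR2pos Cre-neg libraries Herpud1 was at 335, 298, 263 and 281 CPM. In TFEB-TG the log2 fold changes of Herpud1 between the groups with and without Cre were 0.14 ± 0.13 in CCR2neg and 0.14 ± 0.13 in CCR2pos, higher in 4 of 4 and 4 of 4 pairs. The difference between the genotypes was -0.34 ± 0.17 in CCR2neg (edgeR, adjusted p = 0.999).

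The sensors and Ddit3 showed no call with Cre status without the block. In CCR2neg TFEB-wt the CX3CR1-Cre and Cre-neg libraries did not overlap for Ern1 (9.65 to 11.3 against 12.6 to 17.0 CPM) and Ddit3 (43.7 to 48.6 against 35.6 to 42.5 CPM), with log2 fold changes of -0.52 ± 0.17 and 0.24 ± 0.09 (edgeR, adjusted p = 0.117 and 0.216). In all 6 members did not overlap there, where 3.87% of all genes did not. Among marker genes of other cells, Sdc1 of plasma cells fell by 2.25 on the log2 scale with CX3CR1-Cre. Of the 10 measured plasma cell and B cell genes 7 were below 0. Batf3 of dendritic cells was higher by 0.86 ± 0.18, whereas 5 of the 8 dendritic cell genes were below 0 (median log2 fold change -0.36). The 8 dendritic cell genes summed to 49.2 to 86.4 CPM with CX3CR1-Cre and 62.5 to 128 CPM in Cre-neg. The 3 measured mast cell markers summed to 2.12 to 59.5 CPM against 3.32 to 7.77 CPM. Sdc1, Batf3 and the mast cell marker Tpsb2, which was higher by 6.54 ± 1.58, were called (edgeR, adjusted p = 0.00674, 0.00547 and 0.0165). The 11 dissociation and stress genes were all above 0 (median log2 fold change 0.26) and summed to 6604 to 9256 CPM with CX3CR1-Cre and 5882 to 7188 CPM in Cre-neg. The 12 proliferation markers were also all above 0 (median 0.45, 199.8 to 318 against 151 to 223 CPM), and the 4 measured neutrophil markers all below 0 (median -1.58, 66.3 to 92.6 against 85.3 to 126 CPM). The dissociation and stress, proliferation and neutrophil lists held no call in edgeR. The part of all these markers in the result was not tested.

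**Figure D3:**
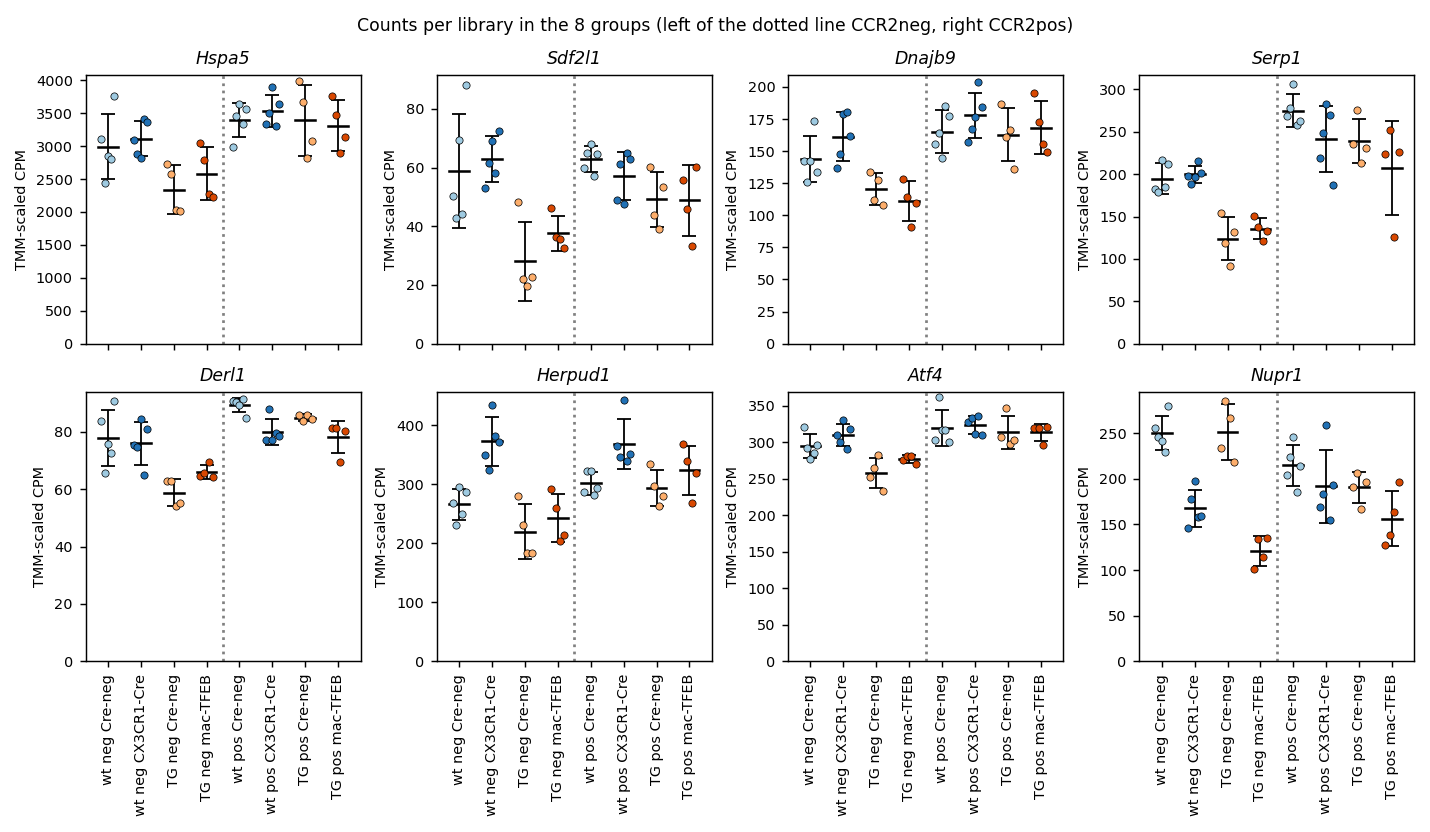
TMM-scaled CPM of 8 genes in every library (points), with the mean (thick line) and SD (bars) of each of the 8 groups, CCR2neg to the left of the dotted line and CCR2pos to the right. Nupr1 is lower in both CCR2neg groups with Cre than in both Cre-neg groups, the Herpud1 mean is highest with CX3CR1-Cre in either fraction, and the means of Serp1 and Dnajb9 are higher in CCR2pos.

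The largest set of calls came from the sort. Averaged over the 4 groups of genotype and Cre status, 9 of 48 members were higher in CCR2pos and 1 was lower, where 7.45% of all genes were higher and 6.41% lower (13.9% called in all). Without library 1 of CCR2neg TFEB-TG Cre-neg 13 members were called, all 13 higher, beside 14% of all genes. The higher ones in all libraries were Hspa5, Dnajb9, Herpud1, Derl1, Serp1, Atf4, Atf6, Atf6b and Ppp1r15a, and the lower one was Asns. In all 39 of 48 members were above 0, with a median log2 fold change of 0.08 against -0.02 over all genes. By role 2 of 12 chaperones, 3 of 7 sensors and transcription factors, 2 of 11 degradation genes, 1 of 6 translocon genes and 1 of 6 stress response outputs were higher, and 0 of 4 disulfide isomerases.

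Serp1 had the smallest p. With CX3CR1-Cre it was at 219.7, 249, 283, 269.7 and 187 CPM in CCR2pos and 198, 188, 196, 215 and 202 in CCR2neg, and in TFEB-wt Cre-neg at 269, 278, 307, 258 and 263 and 182, 179, 216, 185 and 212 CPM. With mac-TFEB it was at 224, 252, 126 and 227 and 151, 138, 121 and 133 CPM, and in TFEB-TG Cre-neg at 236, 276, 213 and 231 and 154, 119, 91.9 and 131 CPM. It was higher in CCR2pos in 17 of 18 numbered pairs. The 18 pairs, here and for the members below, come from 9 combinations of genotype and number, each with and without Cre. Libraries of 1 combination deviated together, so these are not 18 independent pairs. Both Cre-neg comparisons of Serp1 had no overlap, where 3.99% (TFEB-wt) and 7.92% (TFEB-TG) of all genes had none. The averaged log2 fold change was 0.58 ± 0.07, 1.4973-fold (edgeR, adjusted p = 3.29e-07). Dnajb9 was higher by 0.35 ± 0.06 in 17 of 18 pairs and Derl1 by 0.26 ± 0.04 in 15 of 18 (edgeR, adjusted p = 4.22e-05 and 2.10e-05).

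Hspa5, with the ERSE shown above, was at 2818 to 3986 CPM in CCR2pos and 2011 to 3761 CPM in CCR2neg libraries. It was higher in 15 of 18 pairs, by 0.32 ± 0.06 (edgeR, adjusted p = 0.000303). Hsp90b1 (GRP94, the ER member of the HSP90 family), with an ERSE pair in its promoter, had 0.04 ± 0.06 and was higher in 10 of 18 pairs (edgeR, adjusted p = 0.754). Calr, with an ERSE and the CLEAR motif, had 0.03 ± 0.05. Of the 8 members with an ERSE, Hspa5 alone was called in this fit, where 13.9% of all genes were called. Herpud1 was higher by 0.25 ± 0.06 in 16 of 18 pairs and Ppp1r15a by 0.34 ± 0.08 in 16 of 18 (edgeR, adjusted p = 0.00411 and 0.00465).

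Among the factors, Atf4 was higher by 0.16 ± 0.03 in 15 of 18 pairs, Atf6 by 0.19 ± 0.06 in 17 of 18 and Atf6b, a homologue of ATF6, by 0.43 ± 0.14 in 14 of 18 (edgeR, adjusted p = 0.00109, 0.0212 and 0.0291). The Atf6b call was lost without TFEB-TG CCR2pos Cre-neg library 1, CCR2pos mac-TFEB library 2, CCR2neg Cre-neg library 4 or CCR2neg mac-TFEB library 4 (adjusted p = 0.0510 to 0.0583). Atf6b ranged over 15.9 to 38.8 CPM in CCR2pos and 10.7 to 39.4 CPM in CCR2neg. Xbp1 had 0.07 ± 0.20 and was higher in 8 of 18 pairs, Ddit3 0.03 ± 0.05 in 11 of 18, Ern1 0.21 ± 0.09 in 13 of 18 and Eif2ak3 0.04 ± 0.10 in 11 of 18, and these 4 were not called (edgeR). Asns, whose promoter holds a CARE, fell by 0.51 on the log2 scale and was higher in only 3 of 18 pairs (edgeR, adjusted p = 0.0478). Its level over all libraries was 1.62 to 14.0 CPM, and its call was lost in 26 of the 36 fits without 1 library, where the adjusted p ran from 0.0127 to 0.102.

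With the library number of each genotype as a block, 17 members passed, 16 of them higher, but the block also raised the share of all genes called from 13.9% to 21.1% (2700 genes). The 7 further ones were Pdia3 (0.24 ± 0.06), Sdf2l1 (0.31 ± 0.08), Manf (0.24 ± 0.06), Ssr1 (0.13 ± 0.04), Os9 (0.22 ± 0.06), Ern1 (0.22 ± 0.08) and Creld2 (0.32 ± 0.11). Manf and Creld2 are secreted ER stress proteins and Ssr1 is a subunit of the translocon-associated complex. Their adjusted p-values in edgeR with the block were 0.00424, 0.00473, 0.00385, 0.0283, 0.00855, 0.0482 and 0.0281.

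**Figure D4:**
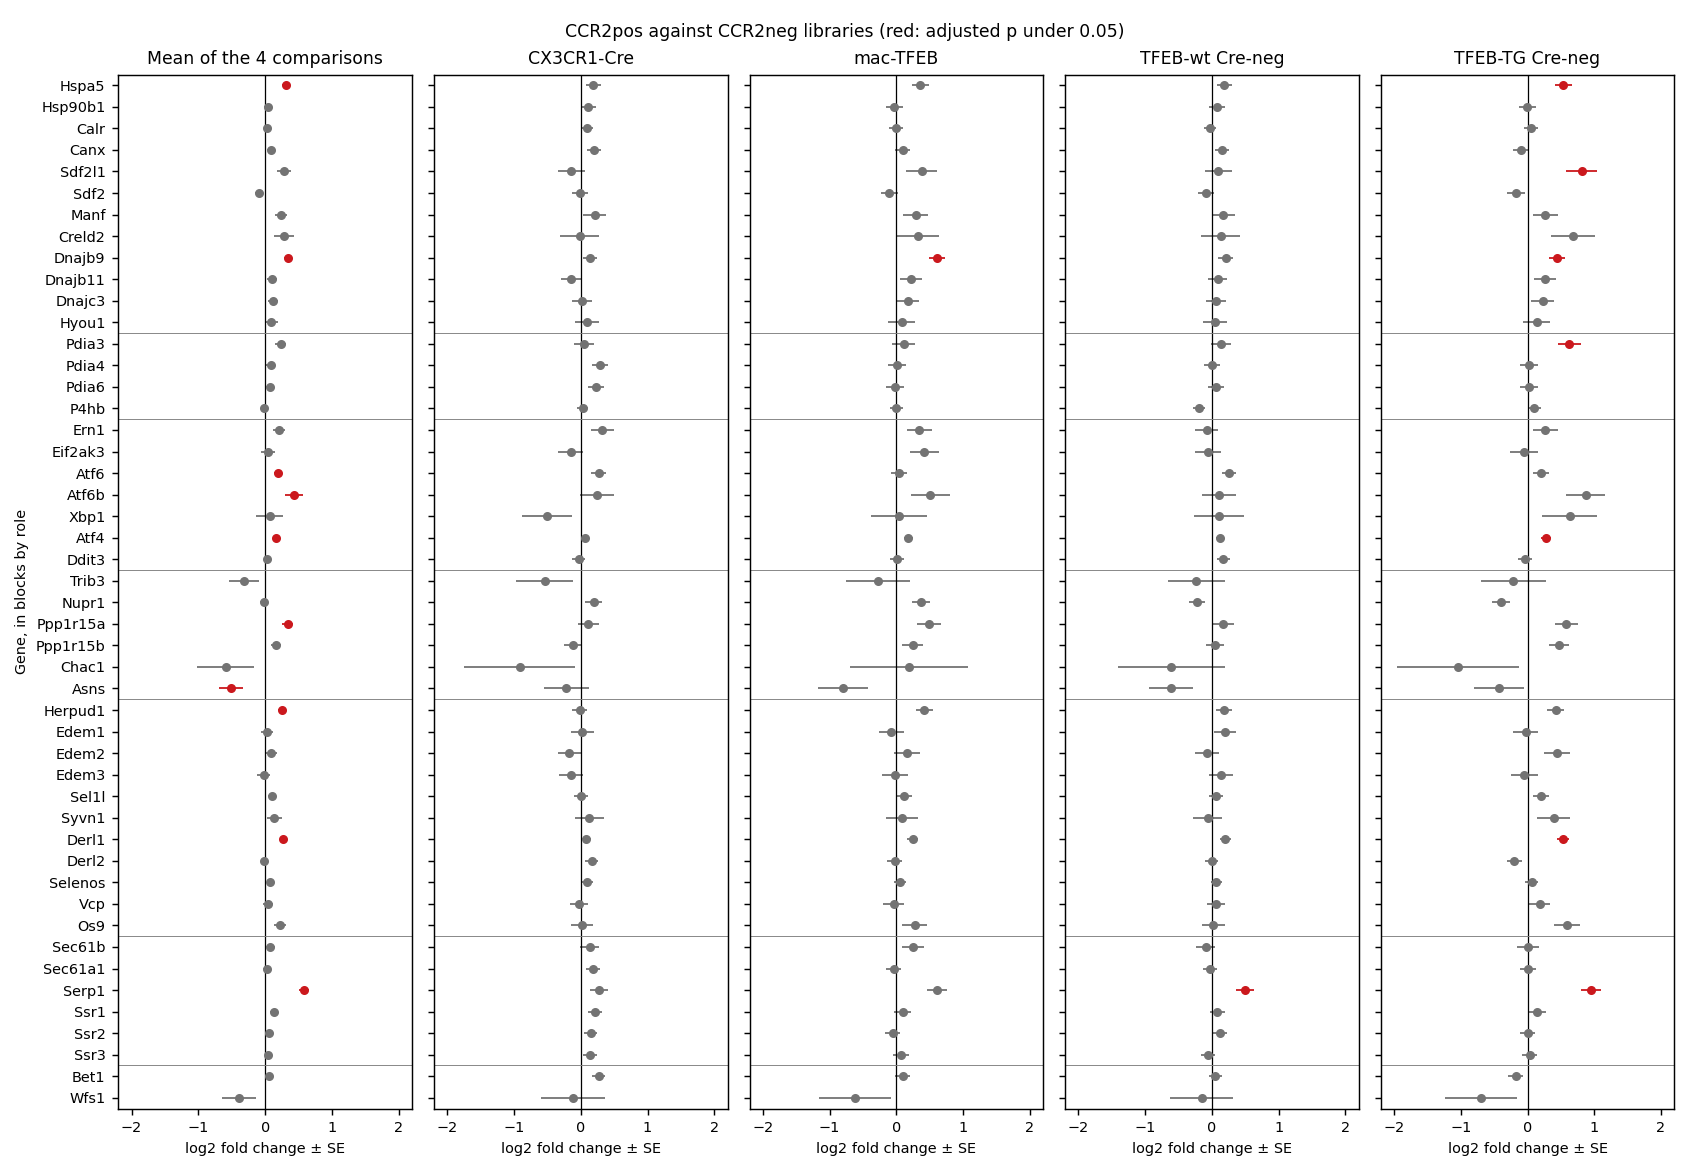
Log2 fold change (point) and SE (bar) of the 48 genes between CCR2pos and CCR2neg libraries, averaged over 4 comparisons (left) and in each of them. Red points, with an adjusted p under 0.05, number 10, 0, 1, 1 and 7 from left to right, and all of them but Asns lie above 0.

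The 4 comparisons behind this average differed in their calls. In TFEB-TG Cre-neg 7 of 48 members were higher in CCR2pos and 0 lower, beside 2.47% and 0.789% of all genes (3.26% in all). Serp1 was higher by 0.95 ± 0.15, Sdf2l1 by 0.81 ± 0.23, Pdia3 by 0.62 ± 0.17, Hspa5 by 0.54 ± 0.13, Derl1 by 0.53 ± 0.09, Dnajb9 by 0.43 ± 0.12 and Atf4 by 0.28 ± 0.07, each in 4 of 4 pairs. The adjusted p-values in edgeR ran from 0.000186 (Serp1) to 0.0401 (Sdf2l1). Sdf2l1 was at 60.2, 43.9, 39.1 and 53.3 CPM in CCR2pos and 48.2, 21.9, 19.7 and 22.5 in CCR2neg, Hspa5 at 3986, 3672, 2818 and 3083 and 2732, 2573, 2029.8 and 2011. Hspa5 and 4 others of the 7 did not overlap, whereas Sdf2l1 and Pdia3 did through library 1 of CCR2neg. In all 5 members did not overlap with CCR2pos higher and 2, Nupr1 and Asns, with CCR2pos lower, where 4.62% and 3.3% of all genes did not (7.92% in either direction).

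The TFEB-TG Cre-neg count was 11 without CCR2neg library 1, 3 without CCR2neg library 3 or 4 or CCR2pos library 1, and 2 without CCR2pos library 2. The share of all genes called was 4.75% without CCR2neg library 1, 2.24%, 2.87% and 2.3% in the fits with 3 members and 1.95% in that with 2, against 3.26% with all libraries. A fit to these 8 libraries alone called 1 member, Serp1, and 0.547% of the genes it tested. With the library number as a block 14 members passed, 13 higher and Nupr1 lower, and the share of all genes rose to 9.6% (1228 genes). Serp1 and Derl1 passed without each of the 8 libraries in turn. The CCR2neg libraries of this group are also those of the Cre-neg comparison of the genotypes, so the lower CCR2neg levels of Serp1, Derl1 and Sdf2l1 enter both. The cardiomyocyte markers, 8 of 8 below 0 with 2 called, summed to 32.6 to 50.2 CPM in CCR2pos and 28.5 to 469 CPM in CCR2neg. Their part in the result was not tested.

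With mac-TFEB, Dnajb9 alone was higher in CCR2pos, at 195, 173, 156 and 149 CPM against 129, 114, 91.1 and 109 CPM, without overlap (0.60 ± 0.12, edgeR, adjusted p = 0.00845), beside 0.539% of all genes called. Without CCR2neg library 3 its adjusted p in edgeR was 0.0683 and 0 members were called, and without CCR2pos library 3 the count was 2. The share of all genes called was 0.289% and 0.578% in these fits. A fit to these 8 libraries alone called 0 members and 0.259% of the genes it tested, with an adjusted p of 0.107 for Dnajb9 in edgeR. Serp1 had 0.61 ± 0.15 with an adjusted p of 0.0514 in edgeR. Dnajb9, Eif2ak3, Atf4 and Derl1 did not overlap between the fractions with mac-TFEB, all 4 higher in CCR2pos. Of all genes 2.69% were higher in this way (5.96% in either direction). With the library number as a block 5 members passed and the share of all genes called rose from 0.539% to 3.76% (481 genes). The further members were Serp1, Herpud1 (0.43 ± 0.08), Hspa5 (0.37 ± 0.08) and Ppp1r15a (0.49 ± 0.10), with edgeR adjusted p = 0.00248, 0.000693, 0.00593 and 0.00239. In TFEB-wt Cre-neg, Serp1 alone was called (0.50 ± 0.13, edgeR, adjusted p = 0.0398), beside 2.35% of all genes (1.53% higher and 0.821% lower), and its call was lost without CCR2neg library 1, 2, 4 or 5 or CCR2pos library 1, 2 or 3 (adjusted p = 0.0602 to 0.117). With CX3CR1-Cre 0 members and 0.797% of all genes (0.594% higher) were called in edgeR, and DESeq2 called 0 members. In edgeR 4 members had an unadjusted p under 0.05, beside 1412 of all 12795 genes. The smallest unadjusted p-values were those of Bet1 at 0.27 ± 0.10 and Atf6 at 0.27 ± 0.11 (edgeR, adjusted p = 0.255 and 0.316).

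Markers of other cells moved with the sort. Of 8 dendritic cell genes 4 were called higher in CCR2pos on average, and their summed level was 129 to 205 CPM in CCR2pos against 49.2 to 86.4 in CCR2neg with CX3CR1-Cre, 121 to 214 against 59.9 to 84.9 with mac-TFEB, 119.9 to 184 against 62.5 to 128 in TFEB-wt Cre-neg and 57.3 to 154 against 47.4 to 114 in TFEB-TG Cre-neg. Of 10 measured plasma cell and B cell genes, whose cells are rich in ER, 2 were called higher (Ighm, Cd79b) and 2 lower (Sdc1, Tnfrsf17), and they summed to 709 to 1284 CPM in CCR2pos and 529 to 1186 in CCR2neg. Fcgr1 of 9 macrophage markers was also called higher, and 6 of the 9 were above 0. Csf3r was called higher among 4 measured neutrophil markers, whereas 3 of the 4 were below 0 (median log2 fold change -0.72). Kif20a of 12 proliferation markers was called lower, and 9 of the 12 were below 0. Of 11 dissociation and stress genes 2 were higher, the cytosolic chaperone Dnajb1 by 0.39 ± 0.08 and Fosb by 0.35 ± 0.08. The part of these in the members' values was not tested.

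Further genes of the same pathways, in lists apart from the 48, were counted in the same fits. In the TFEB and cassette comparisons edgeR called 0 of 13 further folding genes, 0 of 15 of translocation and glycosylation, 0 of 10 of degradation, 0 of 14 of sensing and processing and 0 of 18 measured ATF4-linked genes (of 20 listed). At an unadjusted p under 0.05 there were 4, 4, 1, 1 and 4 of them with TFEB in CCR2neg, beside 1873 of all 12795 genes (edgeR). Averaged over the sort, where 13.9% of all genes were called, edgeR called 1 of the 13 folding genes, 1 of 15 of translocation and glycosylation, 1 of 10 of degradation, 3 of 14 of sensing and processing and 3 of 18 ATF4-linked genes. The 3 ATF4-linked genes were higher in CCR2pos, namely Slc3a2, the heavy chain of amino acid exchangers (0.40 ± 0.06), Sesn2, a leucine sensor of mTORC1 (0.48 ± 0.12), and Nars, an asparaginyl-tRNA synthetase (0.17 ± 0.05). The ubiquitin-conjugating enzyme Ube2j1 of ER degradation was higher by 0.28 ± 0.05, the signal peptidase subunit Spcs2 by 0.19 ± 0.06, the factor Cebpb by 0.38 ± 0.10 and the kinase Eif2ak2 (PKR) by 0.22 ± 0.06. The factor Creb3 and the ER calcium-binding protein Calu fell by 0.18 and 0.24 on the log2 scale. Adjusted p-values in edgeR ran from 6.21e-06 (Slc3a2) to 0.0313 (Nars). In TFEB-TG Cre-neg, Sesn2, Slc3a2 and Ube2j1 were higher by 1.06 ± 0.26, 0.61 ± 0.12 and 0.47 ± 0.10. With Cre status the call was that of Slc7a11, the cystine transporter, which fell by 1.69 on the log2 scale with CX3CR1-Cre in CCR2neg (edgeR, adjusted p = 0.0106).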

How the data were processed

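Read counts per gene were analysed for 36 RNA-seq libraries of sorted mouse cardiac macrophages in 8 groups. Per the labels' protocols, RNA was made into cDNA with the SMARTer Ultra Low kit and sequenced without strand information as single reads of 50 bases. The tools TopHat2 2.0.10, Bowtie2, HTSeq, edgeR and DESeq, and GRCm38 as the build, are named without their roles in the submitters' processing notes. The deposited values are whole-number counts per gene, by its name from HTSeq, in 1 table of 12795 genes, described as filtered, and what filter the authors applied is not stated. The libraries held 13797484 to 32645783 counts. No pair of libraries within a group agreed within counting noise (the chi-square statistic divided by its degrees of freedom was 20.3 to 121 in 64 pairs).

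From the counts, edgeR 4.0.16 (R 4.3.3) was run with TMM scaling, 8 group means over all 36 libraries and the quasi-likelihood F-test. P-values were adjusted by Benjamini-Hochberg over 12795 genes, and a gene was called at an adjusted p under 0.05. CPM are counts scaled to TMM-adjusted library size, log2 fold changes are from the fit, and an SE is the size of the log2 fold change over the root of its F statistic. A minimum count of 10 removed no gene. On simulated counts for 1 such comparison, 22 of 50 genes raised and 24 of 50 lowered by 1 on the log2 scale were recovered, 50 of 50 each at 2, and 11 of 12581 unchanged genes were called. The simulation gave all genes 1 common dispersion (0.0943), so this recovery does not describe members with a smaller or larger spread.

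The members, role groups, further pathway lists and marker lists were chosen with earlier results of these data known. Named were members called in at least 1 comparison, 10 members named always (Hspa5, Hsp90b1, Sdf2l1, Xbp1, Atf4, Ddit3, Atf6, Ern1, Eif2ak3 and Herpud1) and, where a comparison had no call, the 2 members with the smallest unadjusted p. Markers were those of macrophages, plasma and B cells, dendritic cells, mast cells, neutrophils, cardiomyocytes, fibroblasts, endothelium, T and NK cells, dissociation stress and proliferation. Libraries of the same genotype and number deviated together in the groups compared (lowest correlation 0.22). The number was therefore taken to pair groups within a genotype, but only in the counts of numbered pairs and in the fits with a block. The main fit and its adjusted p-values did not use this pairing. Same-numbered libraries of different genotypes had a mean correlation of -0.07. Alternatives were DESeq2's size factors and Wald test (1.42.0), no filter, at least 1 CPM in 9 libraries, the libraries of a comparison alone, a sex term read from Xist above 10 CPM, the number as a block, each library left out in turn and, chosen after seeing the data, 2 libraries of TFEB-TG CCR2neg Cre-neg left out together. Positions and exon lengths are from GENCODE M21, and promoters from RefSeq (GRCm38.p6). Promoter entries of 7 members were not used here.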

Additional observations from a re-analysis of the deposited data

Results flagged for a closer look

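A library was set apart from the others of its group by Dixon's test (gap over range above 0.829 with 4 libraries and 0.71 with 5) in 15 of 152 groups of the 19 named members. Chance sets apart about 1 in 20 groups. The members with a library set apart in this way included Asns at 1.62 CPM in library 1 of TFEB-TG CCR2pos mac-TFEB, below the others (3.01 to 3.24 CPM), Asns at 7.92 CPM in library 5 of TFEB-wt CCR2pos CX3CR1-Cre, above the others (2.64 to 3.87 CPM) and Atf4 at 296 CPM in library 3 of TFEB-TG CCR2pos mac-TFEB, below the others (319 to 321 CPM). Also set apart were Atf4 at 362 CPM in library 2 of TFEB-wt CCR2pos Cre-neg, above the others (300.1 to 317 CPM), Atf6 at 104 CPM in library 3 of TFEB-TG CCR2pos mac-TFEB, above the others (92.6 to 93.6 CPM) and Atf6b at 29.5 CPM in library 1 of TFEB-TG CCR2neg Cre-neg, above the others (10.7 to 12.5 CPM). The same held for Bet1 at 31.4 CPM in library 3 of TFEB-wt CCR2neg CX3CR1-Cre, below the others (41.5 to 44.6 CPM), Ddit3 at 58.5 CPM in library 1 of TFEB-TG CCR2neg mac-TFEB, above the others (43.1 to 44.8 CPM) and Derl1 at 69.7 CPM in library 3 of TFEB-TG CCR2pos mac-TFEB, below the others (80.3 to 81.5 CPM). Further ones were Derl1 at 87.9 CPM in library 2 of TFEB-wt CCR2pos CX3CR1-Cre, above the others (77.1 to 79.8 CPM), Eif2ak3 at 12.5 CPM in library 3 of TFEB-TG CCR2neg Cre-neg, above the others (11.4 to 11.5 CPM) and Eif2ak3 at 18.9 CPM in library 2 of TFEB-TG CCR2pos mac-TFEB, above the others (11.8 to 12.8 CPM). The remaining ones were Herpud1 at 443 CPM in library 3 of TFEB-wt CCR2pos CX3CR1-Cre, above the others (339.5 to 365 CPM), Pdia3 at 1549 CPM in library 5 of TFEB-wt CCR2neg Cre-neg, above the others (985 to 1146 CPM) and Sdf2l1 at 48.2 CPM in library 1 of TFEB-TG CCR2neg Cre-neg, above the others (19.7 to 22.5 CPM). Library 3 of TFEB-TG CCR2pos mac-TFEB accounts for 3 of them and library 1 of TFEB-TG CCR2neg Cre-neg for 2.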

How the results depend on the processing

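The 29 calls of 14 members were recomputed in 750 alternative values, of which 643 kept the call, 107 lost it and 0 reversed. Each averaged CCR2 call has 36 values from fits without 1 library, and each other call 8 to 10. The averaged calls thus weigh most in these totals, which do not describe the stability of the other calls. The 29 values without a filter repeat the main fit, since the filter removed no gene. So do those of the averaged CCR2 comparison fitted to its own libraries, which are all 36. Such repeats could not lose a call. Both Nupr1 calls and the averaged CCR2 calls of Serp1, Derl1, Dnajb9, Hspa5, Atf4, Herpud1, Ppp1r15a and Atf6 were kept in each of their alternative values. With DESeq2's Wald test the count of members called was 5 for TFEB in CCR2neg, 6 for the cassette in CCR2neg and 2 for CCR2 fraction in mac-TFEB, where the share of all genes called moved from 1.38%, 0.406% and 0.539% to 2.35%, 2.04% and 1.2%. With DESeq2's size factors the last was 2, and 2 with the stricter filter, beside 0.539% and 0.586% of the genes tested. With a sex term these 3 counts were 5, 7 and 2, beside 3.35%, 2.23% and 0.813% of all genes. Fits to the libraries of a comparison alone gave 0 for the cassette in CCR2neg, 0 for CCR2 fraction in mac-TFEB and 1 for CCR2 fraction in TFEB-TG Cre-neg. They called 0.00796%, 0.259% and 0.547% of the genes tested. In fits of this kind the calls of Herpud1 and Dnajb9 with TFEB in CCR2neg and of Bet1 with Cre status were lost. Without libraries 1 and 2 of TFEB-TG CCR2neg Cre-neg the cassette count was 9, beside 2.76% of all genes. The causes were not tested. Leaving out 1 library gave 0 to 3 members for TFEB in CCR2neg, 0 to 11 for the cassette in CCR2neg, 1 to 4 for Cre status in TFEB-wt CCR2neg, 0 to 2 for CCR2 fraction in mac-TFEB, 0 to 1 in TFEB-wt Cre-neg, 2 to 11 in TFEB-TG Cre-neg and 8 to 13 for the average. In the same order the share of all genes called was 0.461% to 2.03%, 0.0469% to 3.44%, 1.52% to 3.03%, 0.281% to 0.625%, 1.29% to 2.23%, 1.95% to 4.75% and 12.4% to 14.3%.

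With the replicate block of genotype and number, the count of members called rose from 3 to 6 for Cre status in TFEB-wt CCR2neg, from 0 to 1 in TFEB-wt CCR2pos, from 1 to 5 for CCR2 fraction in mac-TFEB, from 7 to 14 in TFEB-TG Cre-neg and from 10 to 17 for the average. The share of all genes called rose in the same 5 comparisons from 2.6% to 7.54%, 0.00782% to 1.05%, 0.539% to 3.76%, 3.26% to 9.6% and 13.9% to 21.1%. The block lost none of the 23 calls it was fitted to, and the other counts of members stayed at 0 or 1. Between genotypes the library number alone as a block gave 4 members for TFEB in CCR2neg and 4 for the cassette in CCR2neg, beside 2.42% and 0.868% of all genes, and kept the 6 calls there.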

Other observations

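Ufd1, whose product works with Vcp and Nploc4 in drawing proteins out of the ER membrane, is the row of the table closest in name to the listed Ufd1l and was not counted as a member. Its group means lay between 83.3 and 91.6 CPM, and its libraries between 73.4 and 101 CPM.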
